A study of Mus musculus with 5 samples.

Results

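Neutrophils are drawn into tumors by chemokines and raised in number by a growth factor, and 9 genes of this axis were followed here through every cell lineage of 4T1 tumors. They were the ligands Cxcl1, Cxcl2, Cxcl3 and Cxcl5 with their receptor Cxcr2, the growth factor Csf3 with its receptor Csf3r, and the ligand Cxcl12 with its receptor Cxcr4. The genes were chosen by symbol, each had 1 entry in the feature lists, and they made up 9 of 32285 listed features in the T cell libraries and 9 of 54987 in the whole-tumor libraries. No member was used to name a cell lineage.

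The samples were 5 droplet single-cell libraries of tumors grown from 4T1 cells, a mouse line of triple-negative breast cancer, in the mammary fat pad of female BALB/c mice aged 12 weeks. For 2 libraries, magnetic beads had removed cells other than T cells from doxorubicin (DOX) sensitive or DOX resistant tumors, and 3 tumors were pooled into each. The other 3 libraries held whole tumor and carried the labels control, sensitive and resistant. Saline was given to control mice, while mice with sensitive or resistant tumors had received DOX intravenously at 5 mg/kg in 3 doses spaced by 3 days. The source field of the library titled resistant named a sensitive tumor, as did that of the saline control, so each whole-tumor library is named by its label. Each group had 1 library, so a difference between libraries had no replicate check and no p-value was computed. All tumors came from 1 cancer line, and sensitive and resistant tumors were told apart by growth under the drug, not by genotype.

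CXCL1, CXCL2, CXCL3 and CXCL5 share a Glu-Leu-Arg (ELR) motif and bind CXCR2, through which they call neutrophils out of the blood. G-CSF, the product of Csf3, acts on the receptor encoded by Csf3r and drives the making of neutrophils in the bone marrow and their release from it. CXCL12, made by stromal cells, holds CXCR4-bearing cells in the marrow, and opposing signals through CXCR2 and CXCR4 are known to set when a neutrophil leaves. The 4T1 model is known for a strong neutrophil response to tumor-made G-CSF.

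The 4 ELR ligand genes lay on the plus strand of mouse chromosome 5 (GRCm38), within 146.6 kb. Their positions were chr5:90759360-90761624 for Cxcl5, chr5:90786103-90789600 for Cxcl3, chr5:90891241-90893115 for Cxcl1 and chr5:90903871-90905938 for Cxcl2. Cxcl12 lay on the plus strand of chromosome 6 (chr6:117168535-117181367) and Csf3 on the plus strand of chromosome 11 (chr11:98701263-98703629). Of the receptors, Cxcr2 (chr1:74153989-74161246, plus strand) and Cxcr4 (chr1:128588199-128592293, minus strand) shared chromosome 1, and Csf3r was on chromosome 4 (chr4:126024550-126044440, plus strand). Cxcl1, Cxcl2 and Cxcl3 are close paralogs, so the split of reads between them is less certain than their sum.

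The promoters of the 3 paralogs are printed because they hold a common run of 11 bases, and that of Cxcl12 is printed as a ligand promoter without it. Sequences are from RefSeq on GRCm38.p6, plus strand, 5′ to 3′, from 150 to 31 bases before the annotated start. Capitals mark the run GGGAATTTCCC, which has the form of an NF-κB (κB) element and was searched on both strands (GGGAAATTCCC on the other).
Cxcl1, chr5:90891095-90891214: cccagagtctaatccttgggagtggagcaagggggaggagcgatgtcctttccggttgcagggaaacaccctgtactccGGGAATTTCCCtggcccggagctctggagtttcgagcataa
Cxcl2, chr5:90903749-90903868: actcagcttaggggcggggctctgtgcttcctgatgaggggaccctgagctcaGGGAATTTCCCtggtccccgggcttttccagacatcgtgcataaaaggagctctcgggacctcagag
Cxcl3, chr5:90785951-90786070: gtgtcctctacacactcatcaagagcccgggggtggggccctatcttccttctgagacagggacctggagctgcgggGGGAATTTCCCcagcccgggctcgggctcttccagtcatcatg
Cxcl12, chr6:117168385-117168504: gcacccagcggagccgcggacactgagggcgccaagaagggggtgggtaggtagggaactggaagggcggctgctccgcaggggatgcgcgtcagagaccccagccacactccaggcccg
The run began 71, 97 and 73 bases before the RefSeq starts of Cxcl1, Cxcl2 and Cxcl3 (chr5:90891245, chr5:90903899 and chr5:90786101), which differ from the GENCODE gene starts given above. It was found in 9 of 32851 promoter windows (0.0274%) of the same 120 bases, 150 to 31 before a start. The run was picked as the longest string shared by the windows of the 3 paralogs. These 3 therefore hold it by construction and are among the 9, and no enrichment is read from the counts. Of the 7 members with a window, the 4 others (Cxcl12, Cxcr2, Csf3r and Cxcr4) did not hold it, and Cxcl5 and Csf3 were not in the table used. A match is a description of the letters and no measurement of binding.

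Depth set what could be read. After filtering, the sensitive and resistant T cell libraries kept 3560 and 3250 cells with 31047087 and 29672246 unique molecular identifiers (UMIs, one per captured transcript). The control-, sensitive- and resistant-labelled whole-tumor libraries kept 488, 269 and 263 cells with 1638817, 533320 and 1721937 UMIs. Between 87.9% and 94.6% of cells per library were placed in a lineage by marker genes, and T cell libraries still held 145 and 167 neutrophils, 212 and 181 macrophages or monocytes, 827 and 603 fibroblasts and 113 and 142 cancer cells beside 2037 and 1931 T or natural killer (NK) cells. In the T cell libraries, cells other than T/NK had remained after the depletion, so the number in each lineage is not read as tumor content. The T cell libraries shared 31 barcodes and other pairs of libraries 0 to 4. Levels below are a gene's UMIs per 1000000 UMIs of the named cells (CPM), ratios are sensitive over resistant unless another pair is named, and brackets hold 95% intervals. Intervals, and the floor of 3 counts used where a gene had none, cover counting error only.

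Each ligand had its own pattern of sources in the T cell libraries. Fibroblasts held 97.6% (sensitive) and 94.6% (resistant) of Cxcl12 UMIs, and 94.4% and 91.7% of Cxcl5 UMIs. Cxcl1 was spread wider, with 73.3% and 56.7% in fibroblasts, 11.6% and 17.2% in cancer cells and 5.87% and 14.3% in macrophages. Cancer cells, at 3.17% and 4.37% of cells, held 67.3% and 74.2% of Csf3 UMIs. Neutrophils, at 4.07% and 5.14% of cells, held 60.0% and 55.1% of Cxcl2 UMIs and 42.8% and 47.0% of Cxcl3 UMIs, while macrophages held 40.8% and 37.7% of Cxcl3. These shares count only cells left after the depletion and are not shares of the whole tumor. Among these cells the order of sources was the same in both libraries for these ligands. Neutrophils themselves carried most of the Cxcl2, a ligand of their own receptor.

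**Figure D1:**
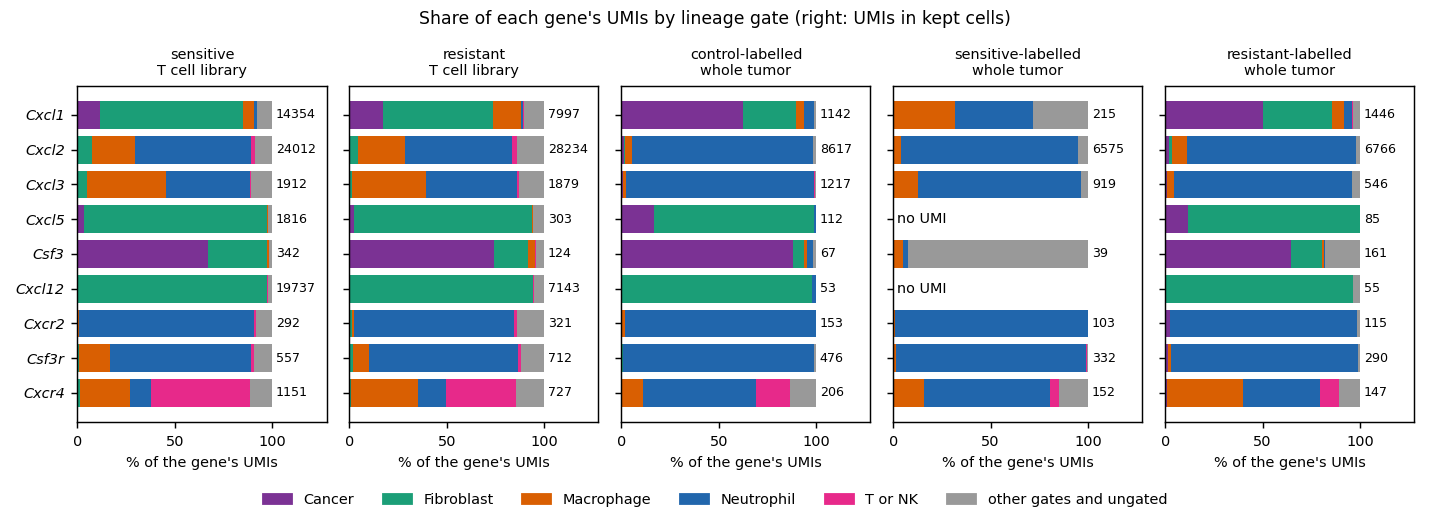
Share of each gene's UMIs by lineage gate in each of the 5 libraries (horizontal axis, percent of the gene's UMIs in kept cells), with the number of UMIs at the right of each bar. Fibroblasts fill 94.6% to 98.1% of the Cxcl12 bars and 82.1% to 94.4% of the Cxcl5 bars where these genes were detected, neutrophils fill most of the Cxcl2, Cxcl3 and Cxcr2 bars in whole tumor, and the sensitive-labelled whole tumor has 0 UMIs of Cxcl5 and Cxcl12.

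Sources in whole tumor were read separately. Cancer cells (30 control-labelled, 44 resistant-labelled) held 62.3% and 50.1% of Cxcl1 UMIs (fibroblasts 27.5% and 35.5%) and 88.1% and 64.6% of Csf3 UMIs. For Cxcl1 cancer cells thus came before fibroblasts here, unlike the order among cells left in the T cell libraries. Only 8 and 5 fibroblasts were gated there, yet they held 98.1% and 96.4% of Cxcl12 and 82.1% and 88.2% of Cxcl5, although no whole-tumor cluster was named fibroblast. Of these, 1 cell held 52.8% of the control-labelled and 69.1% of the resistant-labelled Cxcl12, and 1 cell 36.6% and 45.9% of the Cxcl5. The resistant-labelled cell with most Cxcl12 carried 11 fibroblast, 5 cancer and 6 neutrophil markers. Neutrophils held 92.7%, 90.8% and 87.0% of control-, sensitive- and resistant-labelled Cxcl2 and 96.5%, 83.7% and 91.6% of Cxcl3. The sensitive-labelled library had 1 cancer cell and 1 fibroblast, and it had 0 UMIs of Cxcl5 and of Cxcl12.

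Cxcl12, the stromal ligand of CXCR4, had the most even signal of the ligands across fibroblasts. Its level was 1466 CPM (19257 UMIs in 827 cells) in sensitive and 659 CPM (6754 UMIs in 603 cells) in resistant fibroblasts, a ratio of 2.23 [2.16 to 2.29]. With each cell thinned to 1000 UMIs, 56.1% [52.6 to 59.6] and 32.9% [29.1 to 36.8] of fibroblasts had a Cxcl12 UMI, against 88.9% and 76.9% without thinning. The levels in the 2 libraries did not overlap within counting error, and the 10 cells with most Cxcl12 held 12.3% and 19.1% of it. In T/NK cells, which should lack the gene, 0.0495% had a Cxcl12 UMI after thinning in the sensitive library (median 4020 UMIs per cell, against 13103 in fibroblasts). Neutrophils had 0 Cxcl12 UMIs in both libraries, below floors of 8.31 and 6.11 CPM.

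Cxcl1 was the ligand that most lineages shared. In fibroblasts it was at 801 CPM in sensitive and 442 CPM in resistant tumors (10515 and 4533 UMIs), a ratio of 1.81 [1.75 to 1.87]. In cancer cells it was at 633 and 457 CPM, a ratio of 1.39 [1.29 to 1.49]. Macrophages had the opposite order, with 361 and 555 CPM and a ratio of 0.650 [0.594 to 0.711]. The order of lineages thus differed between libraries, from fibroblast, cancer, neutrophil to macrophage in the sensitive library and from macrophage, cancer, fibroblast to neutrophil in the resistant one, and resistant cancer cells and fibroblasts overlapped within counting error ([433 to 482] and [429 to 455] CPM).

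Neutrophil Cxcl1 rested on few cells. It was at 501 and 159 CPM, a ratio of 3.16 [2.41 to 4.17], but its 181 and 78 UMIs came from 18 of 145 and 19 of 167 cells, and 10 cells held 90.6% and 87.2% of them. After thinning, 10.3% and 8.38% of neutrophils had a Cxcl1 UMI, so the share of Cxcl1-bearing neutrophils was close where the levels were not. With clusters in place of marker gates the ratio was 1.67. Fibroblast markers in the neutrophil gate moved the same way, with 7 of 12 listed genes detected and 144 CPM summed in the sensitive library against 6 of 12 and 28.5 CPM in the resistant one (Pdgfra, Pdgfrb, Fbln1 and Mmp2 at 0 in both). Their part in the result was not tested.

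Cxcl2, an early ligand of activated myeloid cells, was by far highest in neutrophils. It was at 39899 CPM in sensitive and 31701 CPM in resistant tumors (14405 and 15565 UMIs), a ratio of 1.26 [1.23 to 1.29], and after thinning 95.9% and 94.6% of neutrophils had a UMI. Macrophages had 2248 and 3287 CPM, a ratio of 0.684 [0.659 to 0.709], and 31.4% and 55.8% of them had a UMI after thinning. Fibroblasts had 132 and 114 CPM (ratio 1.16 [1.08 to 1.25]), but this ratio was 0.949 with each cell weighted alike and 1.89 with putative doublets removed. Cancer cells had 23.9 and 27.0 CPM (ratio 0.886 [0.627 to 1.25], or 0.116 without the 10 cells with most UMIs of the gene in each library). The order from neutrophil to macrophage to fibroblast to cancer held in both libraries, with no overlap between neighbours within counting error. The neutrophil share of cells with a UMI is near its upper limit, so nothing is read from it. With the stricter gate, which left 86 and 63 macrophages, their Cxcl2 ratio was 0.233.

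Cxcl3 followed Cxcl2 in lineage but was held by fewer cells. Neutrophils had 2269 and 1798 CPM (819 and 883 UMIs), a ratio of 1.26 [1.15 to 1.39] that was 2.22 with a stricter cell filter, and 30.3% and 35.9% had a UMI after thinning. Macrophages had 334 and 344 CPM (ratio 0.972 [0.877 to 1.08]), and there 10 cells held 98.5% and 89.0% of the Cxcl3 UMIs. Single cells set this ratio, which was 77.4 with the stricter gate, where the sensitive library had 83 UMIs in 1 cell and the resistant one 1 UMI, and 0.131 without the 10 cells with most UMIs of the gene in each library. In fibroblasts 92 and 25 UMIs gave 7.0 and 2.44 CPM, a ratio of 2.87 [1.83 to 4.67] that was 1.21 with each cell weighted alike. The neutrophil shares overlapped ([23.0 to 38.5] and [28.7 to 43.7]) where the levels did not.

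Cxcl5, an ELR ligand of epithelial and stromal cells, differed between libraries in fibroblasts and cancer cells alike. It was at 131 CPM (1714 UMIs in 149 cells) in sensitive and 27.1 CPM (278 UMIs in 43 cells) in resistant fibroblasts, a ratio of 4.81 [4.24 to 5.48]. After thinning, 6.0% and 1.99% of fibroblasts had a UMI. The 10 fibroblasts with most Cxcl5 held 46.4% and 77.7% of it, and the ratio ran from 2.95 with each cell weighted alike to 11.6 without the 10 cells with most UMIs of the gene in each library. Cancer cells had 59 and 7 UMIs (22.4 and 2.33 CPM), a ratio of 9.60 [4.38 to 24.9] that was 2.20 with clusters in place of gates. Neutrophils had 0 UMIs in both libraries, and Cxcl5 was higher in the sensitive library in both lineages that made it.

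Csf3, the growth factor, was at 87.2 CPM (230 UMIs) in sensitive and 30.6 CPM (92 UMIs) in resistant cancer cells, a ratio of 2.85 [2.23 to 3.67]. The same number of cancer cells, 45, had a Csf3 UMI in each library, of 113 and 142. The 10 cells with most held 77.4% and 56.5%, and without the 10 top cells of each library the ratio was 1.61, under 2-fold. Fibroblasts had 7.92 and 2.15 CPM (104 and 22 UMIs), a ratio of 3.69 [2.31 to 6.14], which was 7.18 without the 1 cell with most UMIs of the gene in each library. Neutrophils had 0 Csf3 UMIs in both. As for Cxcl5, the value was higher in the sensitive library in both lineages, and a few cells decided its size.

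**Figure D2:**
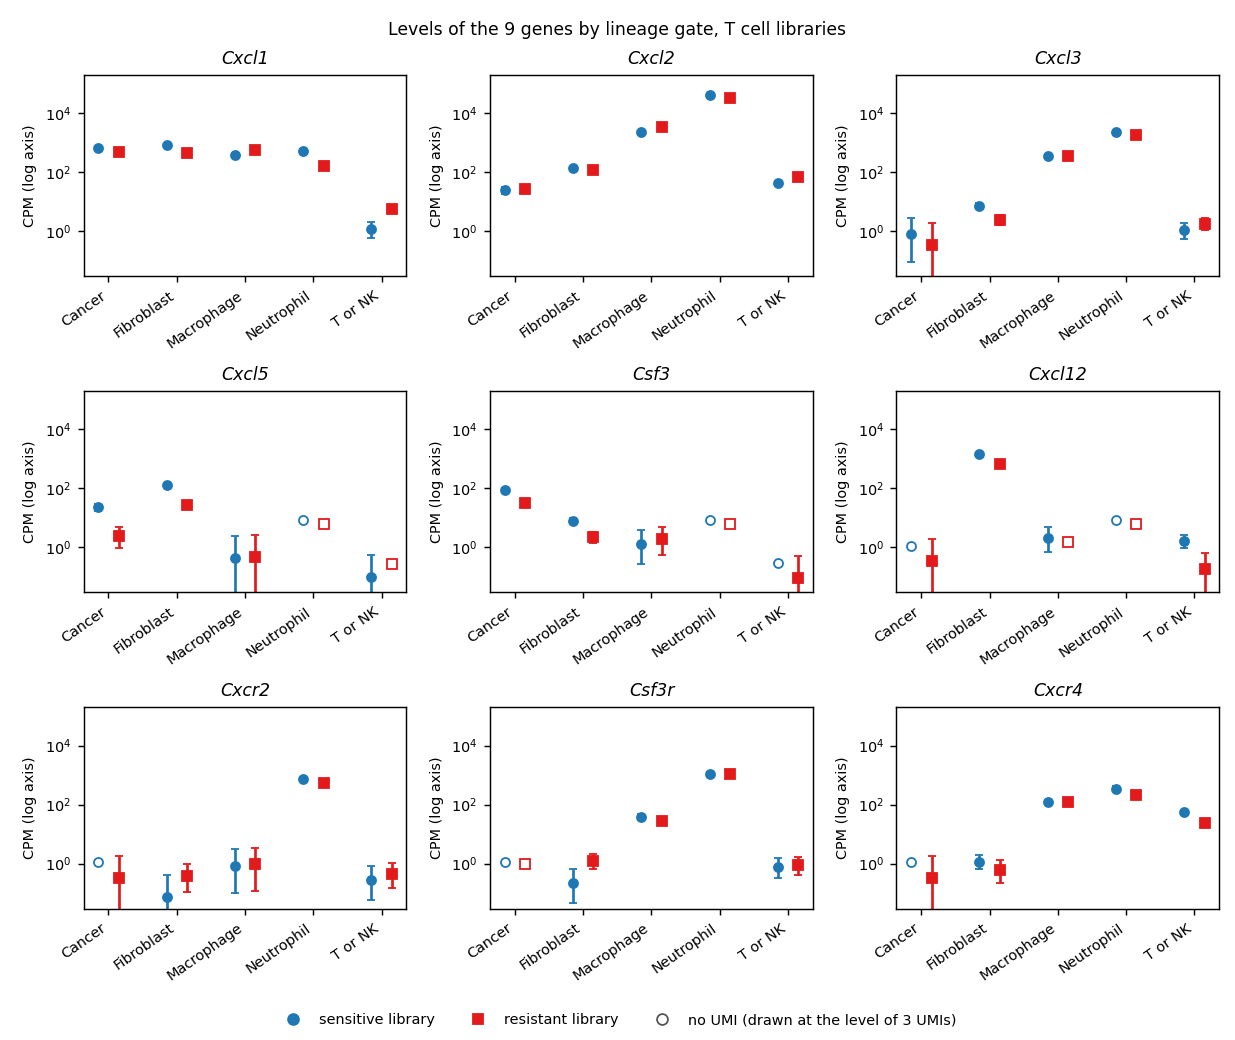
Level of each of the 9 genes (CPM, log axis) in 5 lineage gates of the sensitive and resistant T cell libraries, 1 point per library with its 95% Poisson interval. Cxcl2 is highest in neutrophils (39899 and 31701 CPM) and Cxcl12 in fibroblasts (1466 and 659 CPM), with the 2 libraries apart for Cxcl12 and near each other for Csf3r in neutrophils.

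Counted together, fibroblasts had 4 of 7 tested members at least 2-fold higher in the sensitive library (Cxcl12, Cxcl5, Csf3 and Cxcl3) and 0 lower. The Cxcl3 call did not hold, at 1.21 with each cell weighted alike, 0.608 in cells with Pi16, and 3 and 0 UMIs with the stricter gate, and that of Csf3 was lost in cells with Pi16 (1.82). With each cell weighted alike the count was again 4, with Cxcr4 (4.60, on 15 and 6 UMIs) in place of Cxcl3. A gene was tested when it had at least 20 UMIs in both libraries together. Among all genes tested in fibroblasts, 4.08% were at least 2-fold higher and 1.64% lower, and the median gene ratio was 1.06. In cancer cells 2 of 4 members were higher and 0 lower (background 2.1% and 2.39%), and in neutrophils 1 of 6 higher, Cxcl1, and 0 lower (background 3.74% and 5.01%). In macrophages 0 of 5 were past 2-fold in either direction (background 3.88% higher and 1.05% lower), but with the stricter gate Cxcl1 (0.314) and Cxcl2 (0.233) were lower and Cxcl3 (77.4) higher, and with clusters Cxcl1 was at 0.495. T/NK cells had 1 of 4 higher, Cxcr4, and 1 lower, Cxcl1 (background 4.85% and 1.89%), but Cxcr4 was at 1.995 over all deposited barcodes, and Cxcl1 turned to 2.44 with the stricter gate and 3.64 with clusters. Over all kept cells 3 of 9 were higher, Cxcl5, Csf3 and Cxcl12, and 0 lower (background 4.17% and 1.68%), with whole-library ratios from 0.748 for Csf3r to 5.73 for Cxcl5. Whole-library ratios also move with the lineages that escaped depletion, of which fibroblasts made up 23.2% (sensitive) and 18.6% (resistant) of cells.

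**Figure D3:**
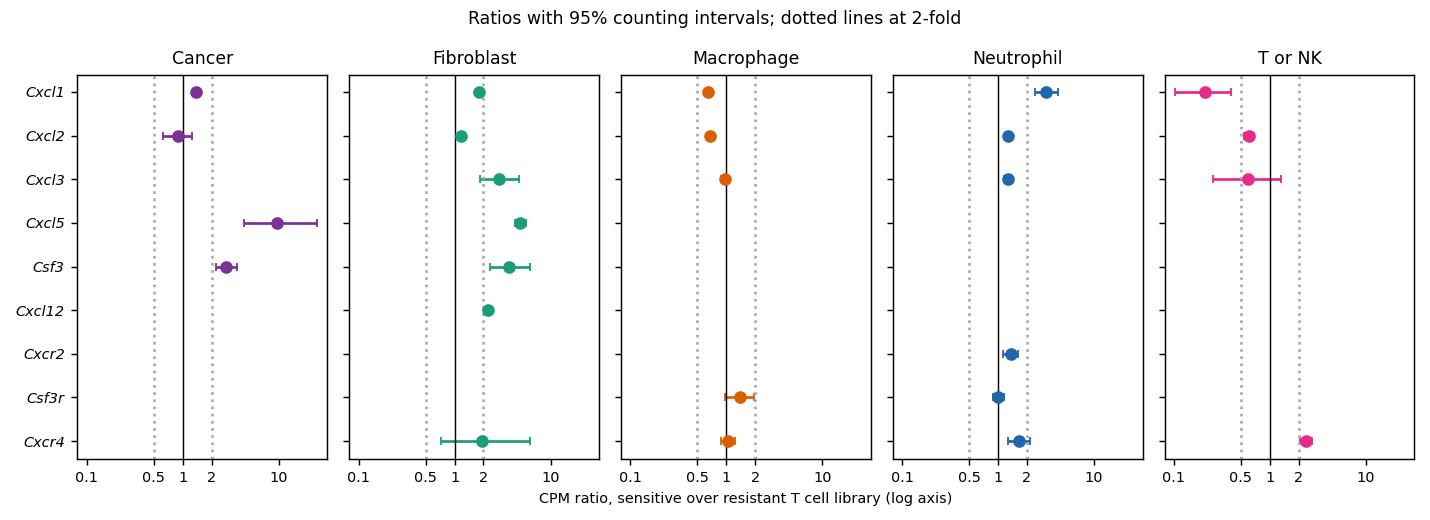
Ratio of CPM in the sensitive over the resistant T cell library (log axis) for each gene by lineage, with 95% counting intervals and dotted lines at 2-fold. Fibroblast ratios of Cxcl12 (2.23), Cxcl5 (4.81), Csf3 (3.69) and Cxcl3 (2.87) lie to the right of 2-fold, while macrophage ratios of Cxcl1 (0.650) and Cxcl2 (0.684) lie to the left of 1.

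The fibroblast differences were looked for again within kinds of fibroblast. Cells with a UMI of Pi16, a marker of adventitial fibroblasts, were 716 of 827 (86.6%) sensitive and 572 of 603 (94.9%) resistant fibroblasts. In them Cxcl12 was at 1717 and 700 CPM (ratio 2.45 [2.38 to 2.52]), Cxcl5 at 137 and 26.6 CPM (ratio 5.15 [4.50 to 5.91]) and Cxcl1 at 693 and 450 CPM (ratio 1.54 [1.48 to 1.60]). These ratios kept the direction seen over all fibroblasts. In the 111 and 31 cells without a Pi16 UMI, Cxcl12 was lower, at 379 and 119 CPM, and Cxcl1 was at 1266 and 339 CPM, a ratio of 3.74 [3.28 to 4.27]. The fibroblast Cxcl3 ratio did not hold across this split, at 0.608 [0.293 to 1.23] with Pi16 and 7.63 [2.52 to 37.8] without it, where it rested on 77 and 3 UMIs. Csf3 had 45 against 22 UMIs in cells with Pi16, a ratio of 1.82 [1.07 to 3.19] that is under 2-fold in most of the gate, and 59 against 0 in cells without it.

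Splitting fibroblasts by contractile genes gave a second view. Cells with a UMI of Acta2 or Tagln, genes of myofibroblasts, were 238 of 827 and 151 of 603. Cxcl12 was at 971 and 427 CPM in them (ratio 2.28) and at 1882 and 818 CPM in the others (ratio 2.30), so the ratio was nearly the same in both kinds while the level was higher in cells without these genes. Cxcl5 was at 162 and 52.0 CPM with Acta2 or Tagln (ratio 3.12 [2.69 to 3.63]) and at 104 and 10.0 CPM without (ratio 10.3 [7.96 to 13.7]). Cxcl1 had ratios of 2.54 [2.39 to 2.70] and 1.49 [1.43 to 1.56]. Cxcl2 changed sides, with 1.77 [1.56 to 2.0] in cells with these genes and 0.885 [0.804 to 0.976] in cells without.

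Markers of other cells were also found in the fibroblast gate. Neutrophil markers summed to 332 CPM in the sensitive (17 of 21 detected) and 301 CPM in the resistant library (20 of 21), and macrophage markers to 115 CPM (13 of 14) and 88.2 CPM (14 of 14). Endothelial markers summed to 38.8 CPM (7 of 9, Cdh5 and Emcn at 0 in both) against 9.17 CPM (6 of 9), and pericyte markers to 50.1 CPM against 97.7 CPM (5 of 5 in both), so these lists differed between the libraries, in opposite directions. With putative doublets removed, the fibroblast ratio was 1.89 for Cxcl2 and 8.84 for Cxcl3, each further above 1. In cells with fewer than 2 markers of any other lineage (504 and 320 fibroblasts), Cxcl3 had 3 and 0 UMIs. Cxcr2, Csf3r and Cxcr4 had 1 and 4, 3 and 13, and 15 and 6 UMIs in fibroblasts.

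Macrophage ligands were split by C1q genes, which mark mature tumor macrophages. Of 212 and 181 cells, 185 and 144 had a C1q UMI, and in them Cxcl2 was at 1896 and 2672 CPM (ratio 0.709 [0.680 to 0.740]) and Cxcl1 at 334 and 506 CPM (ratio 0.661 [0.598 to 0.731]). In the 27 and 37 cells without C1q, Cxcl2 was at 5308 and 6157 CPM (ratio 0.862 [0.804 to 0.924]). Both kinds were therefore on the same side of 1 for Cxcl2, and cells without C1q had the higher level. Cxcl3 went opposite ways, at 0.395 [0.336 to 0.462] with C1q and 3.67 [3.14 to 4.31] without, beside the ratio of 0.972 over all macrophages. Few cells carried it, 4.86% and 11.1% of those with C1q and 22.2% and 27.0% of those without. In each library 1 macrophage held many of the Cxcl3 UMIs (219 sensitive, 188 resistant), so no direction by kind of macrophage is read from these ratios. Neutrophil markers in the macrophage gate summed to 1921 and 1189 CPM (17 of 21 detected in each, Ly6g and Retnlg at 0 in both), and their part was not tested.

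The receptor of the ELR ligands, Cxcr2, was close to a neutrophil gene. Neutrophils held 89.7% and 82.2% of its UMIs in the T cell libraries (sensitive and resistant), at 726 and 538 CPM (262 and 264 UMIs), a ratio of 1.35 [1.13 to 1.61]. After thinning 44.1% [35.9 to 52.6] and 41.3% [33.8 to 49.2] of neutrophils had a UMI, and 0 of 2020 and 0 of 1927 T/NK cells. The shares overlapped, and the difference in level stayed under 2-fold. Csf3r, the G-CSF receptor, was at 1122 and 1112 CPM in neutrophils, a ratio of 1.01 [0.885 to 1.15], and 63.4% and 62.3% of cells had a UMI. Macrophages held 16.0% and 8.01% of Csf3r UMIs, at 38.1 and 27.6 CPM (ratio 1.38 [0.978 to 1.96]).

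Cxcr4, the CXCL12 receptor, was found in more lineages than Cxcr2 and Csf3r. T/NK cells held 50.6% and 36.2% of its UMIs, macrophages 25.8% and 34.5% and neutrophils 10.9% and 14.2%. By level, neutrophils were highest (346 and 210 CPM), then macrophages (127 and 122 CPM), then T/NK cells (55.9 and 23.4 CPM), in that order in both libraries with no overlap between neighbours within counting error. The sensitive over resistant ratio was 1.65 [1.26 to 2.16] in neutrophils (2.22 with a stricter cell filter), 1.05 in macrophages and 2.39 [2.06 to 2.77] in T/NK cells. After thinning 5.94% [4.95 to 7.06] and 2.49% [1.84 to 3.29] of T/NK cells had a Cxcr4 UMI, against 16.4% and 7.82% without thinning. In cancer cells, which carried 0 and 1 Cxcr4 UMIs, the thinned share was 0 in both (median 20484 and 21320 UMIs per cell).

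The T/NK ratio of Cxcr4 was also taken by T cell class. Cells with a Cd3 gene and Cd8a or Cd8b1 but without Cd4 were 1350 of 2037 (66.3%) and 1629 of 1931 (84.4%), with Cxcr4 at 31.9 and 15.2 CPM, a ratio of 2.09 [1.69 to 2.60]. Cells with a Cd3 gene, Cd4 and neither Cd8 gene were 202 (9.92%) and 52 (2.69%), with 111 and 101.7 CPM and a ratio of 1.09 [0.673 to 1.84]. The intervals of the 2 classes overlapped and their difference was not tested. The CD8 cells held 213 of 582 and 146 of 263 Cxcr4 UMIs and the CD4 cells 118 and 20, and the others lay in T/NK cells of neither class. Cxcr4 was thus higher in CD4 cells than in CD8 cells in both libraries, and CD4 cells were a larger share of T/NK cells in the sensitive library than in the resistant one. Over all deposited barcodes the T/NK ratio was 1.995 and no longer past 2-fold. The median gene ratio in T/NK cells was 1.10 (0.14 on the log2 scale), given beside the 2.39. It takes no account of the mix of T cell classes, whose part in the ratio was not tested.

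T/NK cells had few ligand UMIs. Cxcl1 had 12 UMIs in 12 sensitive cells and 62 UMIs in 9 resistant cells, 77.4% of them in 1 cell, and the ratio of 0.209 became 0.846 without the 1 cell with most UMIs of the gene in each library, 2.44 with the stricter gate and 3.64 with clusters, so it has no stable direction. Cxcl2 had 425 UMIs in 24 cells and 748 in 51, with 71.3% of the sensitive UMIs in 1 cell. Its ratio was 0.613 over all T/NK cells and 1.02 [0.892 to 1.155] within CD8 cells. Without the 1 cell with most UMIs of the gene in each library it was 0.266 over all T/NK cells. Neutrophil markers summed to 265 and 187 CPM in this gate (16 and 19 of 21 detected) and macrophage markers to 238 and 175 CPM (14 of 14 in both), and their part was not tested. Cxcl3 had 11 and 20 UMIs, Cxcl12 17 and 2, Csf3r 8 and 10, Cxcr2 3 and 5, Cxcl5 1 and 0 and Csf3 0 and 1.

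**Figure D4:**
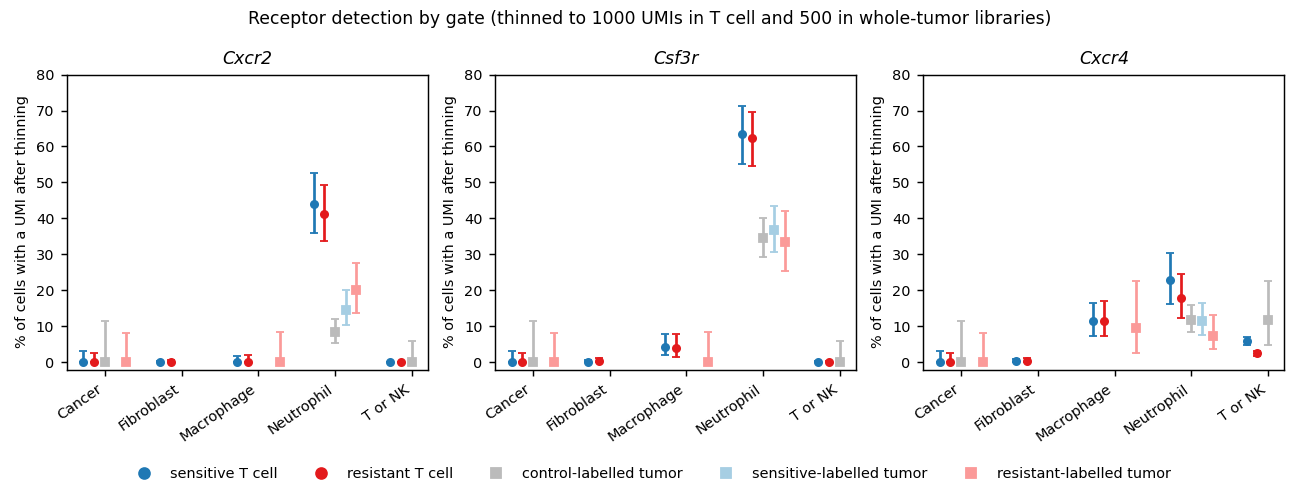
Percent of cells with a UMI of Cxcr2, Csf3r or Cxcr4 by lineage gate and library, with 95% Clopper-Pearson intervals, after thinning to 1000 UMIs per cell in T cell libraries and 500 in whole-tumor libraries. Cxcr2 and Csf3r points rise above 0 mainly in neutrophils (Cxcr2 44.1% and 41.3% in the T cell libraries), whereas Cxcr4 is also seen in macrophages and T/NK cells. The kinds of library differ in depth and are not set against each other.

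Receptors and ligands were also counted within single cells after thinning, as a description, since cells of 1 library are not replicates. Cxcr2 and Cxcr4 were seen together in 18 of 145 sensitive neutrophils (12.4%) and 15 of 167 resistant ones (8.98%), and Cxcr4 was found in 28.1% and 21.7% of Cxcr2-bearing neutrophils against 18.5% and 15.3% of the rest. In whole tumor 4 of 312, 5 of 225 and 2 of 135 neutrophils had both (control-, sensitive- and resistant-labelled), and Cxcr4 was found in 15.4%, 15.2% and 7.41% of Cxcr2-bearing neutrophils against 11.5%, 10.9% and 7.41% of the rest. No direction is read from these counts, which are small. Among macrophages, 36.4% and 33.7% of cells with Cxcl2 also had Cxcl1, against 3.47% and 3.75% of cells without Cxcl2. Among fibroblasts with Cxcl1, 17.5% and 9.92% had Cxcl2, against 1.16% and 3.12% of the rest, and 63.7% and 44.6% had Cxcl12, against 53.5% and 29.9%. In the T cell libraries Cxcl1 and Cxcl2 were each detected at a higher rate in macrophages and fibroblasts that held the other, while in resistant-labelled whole tumor Cxcl1 was in 12.5% (2 of 16) of macrophages with Cxcl2 and 15.4% (4 of 26) of the rest.

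Whole tumor allowed treated tumors to be set against the saline control, mainly in neutrophils, of which 312 were control-, 230 sensitive- and 135 resistant-labelled (63.9%, 85.5% and 51.3% of cells). Both treated libraries are compared with the same control library, so these ratios are not independent. Cxcl2 was at 12696, 15969 and 19158 CPM, with ratios to control of 1.26 [1.22 to 1.30] and 1.51 [1.46 to 1.56]. Cxcl1 was at 96.9, 230.0 and 208 CPM (61, 86 and 64 UMIs), with ratios of 2.37 [1.69 to 3.35] and 2.15 [1.49 to 3.10]. Both ligands were higher in each treated library than in the control one, and Cxcl3 was not: its 1866, 2057 and 1627 CPM gave ratios of 1.10 [1.01 to 1.21] and 0.872 [0.784 to 0.969]. The Cxcl3 value of the sensitive-labelled library fell to the other side of 1 in several settings, for example 0.978 with a stricter cell filter.

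The neutrophil receptors all stayed under 2-fold from control. Csf3r was at 740.5, 867 and 908 CPM, with ratios to control of 1.17 [1.01 to 1.35] and 1.23 [1.05 to 1.43]. Cxcr2 was at 238, 273 and 358 CPM, with ratios of 1.14 [0.881 to 1.48] and 1.5 [1.16 to 1.93], and after thinning to 500 UMIs 8.33% [5.52 to 12.0], 14.7% [10.3 to 19.98] and 27 of 135 [13.6% to 27.7%] of neutrophils had a UMI. Without thinning the shares were 31.1%, 29.1% and 44.4%, so the resistant-labelled library was highest both ways and the order of the other two libraries turned. Cxcr4 was at 191, 262 and 189 CPM, with ratios of 1.37 [1.04 to 1.81] and 0.990, and the share of cells with a UMI was 11.9%, 11.6% and 7.41%. Between the treated libraries, the sensitive over resistant ratios were 1.10 for Cxcl1, 0.834 for Cxcl2, 1.26 for Cxcl3, 0.762 [0.576 to 1.01] for Cxcr2, 0.954 for Csf3r and 1.39 [0.994 to 1.96] for Cxcr4.

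By count, 1 of 6 tested members (Cxcl1) was at least 2-fold higher and 0 lower in neutrophils of the sensitive-labelled than of the control library, where 10.3% of all tested genes were higher and 5.05% lower. In the resistant-labelled library it was again 1 of 6, Cxcl1, and 0 lower (background 8.91% and 5.11%). Between the treated libraries 0 of 6 were past 2-fold in either direction (background 4.59% higher and 3.61% lower), and 1 was with a stricter cell filter, Cxcl1 at 2.81 in place of 1.10. With 1 of 6 against a background near 1 in 10, these counts are no result about the members. Cxcl1 itself was under 2-fold higher without the 10 cells with most UMIs of the gene in each library (1.67 in the sensitive-labelled library), and in the resistant-labelled library it was at 1.75 without the 1 top cell and at 0.893 with a stricter cell filter.

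**Figure D5:**
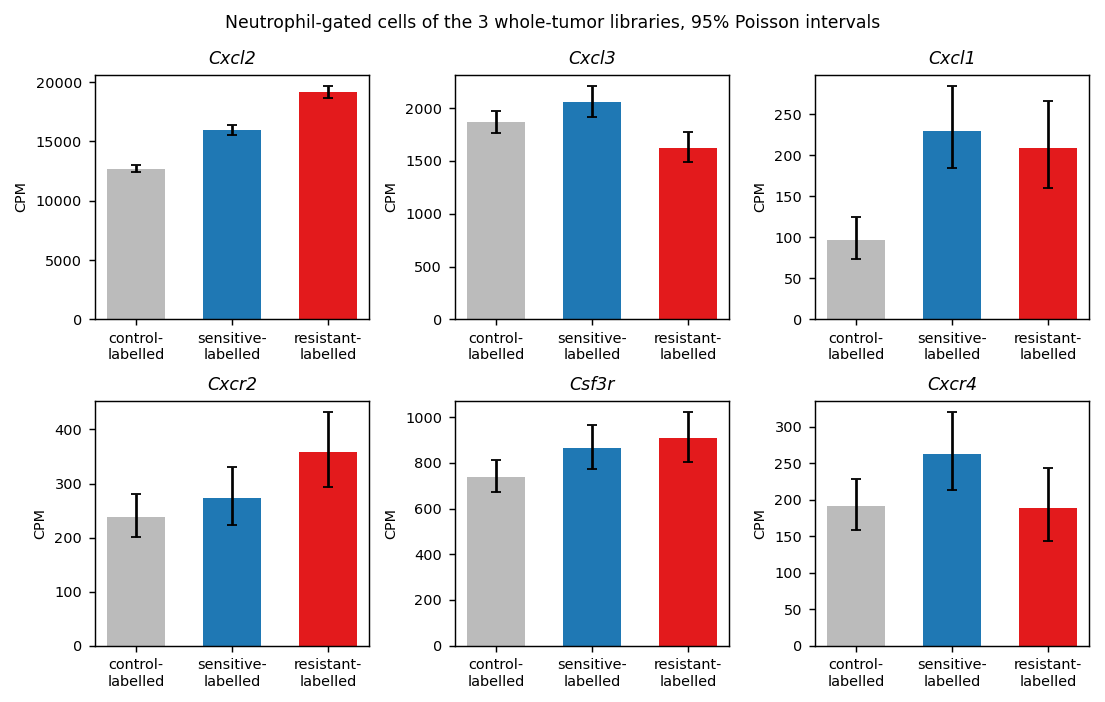
Level (CPM, axes from 0) of 6 genes in neutrophil-gated cells of the control-, sensitive- and resistant-labelled whole-tumor libraries, 1 bar per library with its 95% Poisson interval. Cxcl2 steps up from 12696 to 15969 to 19158 CPM and Cxcr2 from 238 to 273 to 358 CPM, and Cxcl1 of both treated libraries lies above the control.

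The maturity of the neutrophils moved with these values. Cells with a UMI of Ngp, Camp or Ltf, granule genes of immature neutrophils, were 61 of 312 (19.6%) in the control-labelled and 24 of 230 (10.4%) in the sensitive-labelled library, and 96.3% of resistant-labelled neutrophils had none. The 3 genes summed to 4214, 2029.9 and 35.8 CPM in the neutrophil gate. In control-labelled cells with these genes Cxcl2 was at 5423 CPM, against 16826 CPM in cells without. Within cells without them the Cxcl2 ratio to control was 1.00 [0.966 to 1.04] for sensitive-labelled and 1.17 [1.13 to 1.22] for resistant-labelled cells, and within cells with them it was 2.08 [1.89 to 2.29] in the sensitive-labelled library (11299 against 5423 CPM, 24 and 61 cells). The sensitive-labelled Cxcl2 level was thus higher than control in cells with granule genes, while the interval held 1 in those without. In cells without them Cxcl1 ratios were 1.65 [1.16 to 2.37] and 1.49 [1.03 to 2.17], and Csf3r ratios 1.03 [0.876 to 1.20] and 1.03 [0.874 to 1.21], whose intervals now included 1. Cxcl3 ratios were 0.909 [0.826 to 1.00] and 0.640 [0.573 to 0.713]. Cxcr2 ratios were 1.21 [0.896 to 1.63] and 1.49 [1.12 to 1.99]. Cxcr4 ratios were 1.16 [0.864 to 1.56] and 0.769 [0.544 to 1.08], so the sensitive-labelled interval, which excluded 1 over all neutrophils, included it here.

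In the T cell libraries 92.4% and 92.8% of neutrophils had no UMI of these granule genes, although the genes summed to 41.5 CPM in sensitive and 4945 CPM in resistant neutrophils. In cells without them the sensitive over resistant ratios were 4.42 [3.23 to 6.14] for Cxcl1, 1.16 [1.13 to 1.19] for Cxcl2, 1.08 [0.968 to 1.20] for Cxcl3, 1.34 [1.11 to 1.61] for Cxcr2, 0.962 [0.838 to 1.10] for Csf3r and 1.61 [1.21 to 2.14] for Cxcr4. The directions for Cxcl1, Cxcr2 and Cxcr4 were thus those over all neutrophils, and the interval for Cxcl3 came to include 1.

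Cancer cells could be compared between the resistant-labelled and control-labelled whole tumors only. Cxcl1 was at 814 against 1274 CPM (725 and 712 UMIs), a ratio of 0.639 [0.575 to 0.710]. Csf3 was at 117 against 106 CPM (104 and 59 UMIs), a ratio of 1.11 [0.796 to 1.55], and Cxcl2 at 150.5 against 183 CPM (ratio 0.824 [0.632 to 1.08]). Cxcl5 had 10 against 19 UMIs, a ratio of 0.330 [0.137 to 0.747]. Cxcl1 and Cxcl5 were thus lower in the resistant-labelled cells beyond counting error, and for Cxcl2 and Csf3 the interval included 1. By count 0 of 4 members were higher and 1, Cxcl5, lower (background 8.09% and 4.24%), and without the 10 cells with most UMIs of the gene in each library the Cxcl1 ratio was 1.06 and that of Cxcl2 2.03.

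Over all kept cells of whole tumor, the values moved with the lineages sampled. In the sensitive-labelled over the control library, 5 of 9 members were at least 2-fold higher and 2 lower (background 9.16% and 32.1%). The 5 were Cxcl2 (2.34), Cxcl3 (2.32), Cxcr2 (2.07), Csf3r (2.14) and Cxcr4 (2.27), all found mainly in neutrophils, which were 85.5% against 63.9% of cells. The 2 lower were Cxcl5, at least 12.1-fold lower with 0 against 112 UMIs, and Cxcl12, at least 5.75-fold lower with 0 against 53 UMIs. In the resistant-labelled over the control library, 1 of 9 was higher, Csf3 (2.29), and 1 lower, Cxcl3 (0.427; background 10.5% and 3.99%), with cancer cells at 16.7% against 6.15% of cells. Within neutrophils the sensitive-labelled ratios of the 5 were 1.26, 1.10, 1.14, 1.17 and 1.37, each under 2-fold. Within cancer cells the resistant-labelled Csf3 ratio was 1.11, and within neutrophils that of Cxcl3 was 0.872. For Cxcl5 and Cxcl12, with 1 fibroblast in the sensitive-labelled library, a change in the share of fibroblasts and a change in their cells cannot be told apart.

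Macrophages of whole tumor were few, at 16, 12 and 42 cells. Cxcl2 was at 4068, 4893 and 1899 CPM and Cxcr4 at 295, 438 and 217 CPM, in the same order of libraries. Cxcl1 was at 591, 1242 and 326 CPM and Cxcl3 at 268, 2155 and 67.4 CPM, and in the sensitive-labelled library 1 cell held 88.2% of the Cxcl1 and 86.4% of the Cxcl3. Both genes were lowest in the resistant-labelled library, with no count large enough to set the libraries apart from single cells. In T/NK cells Cxcr4 had 35 UMIs in 60 control-labelled cells and 14 UMIs in 16 resistant-labelled cells.

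Other genes of the axis were taken from a list of 38, sorted into further ELR ligands and receptors, CXCL12 receptors, growth factors, inducers and regulators, and neutrophil trafficking. In fibroblasts of the T cell libraries 4 of 27 tested were at least 2-fold higher in the sensitive library and 3 lower (background 4.08% and 1.64%), with a median ratio of 1.18 beside 1.06 over all genes tested. Csf2rb, the shared chain of the GM-CSF receptor, was at 28.4 and 8.88 CPM (ratio 3.20 [2.54 to 4.07]), and Zc3h12a, an RNase that degrades Cxcl1 and other inflammatory transcripts, at 21.9 and 9.66 CPM (ratio 2.27 [1.80 to 2.88]). Csf2, which encodes GM-CSF, had 65 and 5 UMIs (ratio 10.1 [4.13 to 32.3]), 78.5% of the 65 in 1 cell. Il1b had 9 UMIs in sensitive and 222 in resistant fibroblasts (ratio 0.0316 [0.0143 to 0.0612]), the latter in 20 cells, with 28.4% in 1. Tnf had 13 and 25 UMIs in 5 and 8 cells (ratio 0.406 [0.191 to 0.824]), with 61.5% and 48% in 1 cell. Without the 1 top cell of each library these ratios were 0.0294 and 0.300. Neutrophil and macrophage markers were found in this gate, and their part was not tested. Of the 13 inducers and regulators tested in fibroblasts, 1 was higher and 3 lower, with a median ratio of 1.30.

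In T/NK cells 11 of 27 were higher and 3 lower (background 4.85% and 1.89%), with a median of 1.54 beside 1.11 over all genes tested. The named ones were the NF-κB inhibitor gene Nfkbia at 839.5 and 401 CPM (ratio 2.10), Zfp36, which destabilises cytokine mRNA, at 302 and 117 CPM (2.58), Nfkbiz, a coactivator of inflammatory genes, at 129 and 53.9 CPM (2.39), Csf2 at 108 and 40.2 CPM (2.67) and Tnf at 91.9 and 43.8 CPM (2.10). All 5 intervals lay above 1. Cancer cells had 2 of 17 higher and 0 lower (background 2.1% and 2.39%), Csf2 with 53 and 30 UMIs (2.01 [1.26 to 3.26], or 1.94 without the 1 top cell of each library) and the ELR ligand gene Cxcl15 with 28 and 1 UMIs, 60.7% of the 28 in 1 cell. Macrophages had 1 of 29 higher and 0 lower (background 3.88% and 1.05%), which was Il6 at 64.3 and 10.2 CPM (6.31 [3.98 to 10.5]). Neutrophils had 1 of 27 higher and 0 lower (background 3.74% and 5.01%), Il17a with 25 UMIs, all in 1 cell, against 0. Cxcr1, the further receptor of this family, was tested in whole-tumor neutrophils and had 18 sensitive-labelled and 5 resistant-labelled UMIs (2.96 [1.06 to 10.2]), the 1 gene of 26 past 2-fold between them (background 4.59% higher). Its ratio was 2.86 [0.900 to 11.95] without the 1 top cell of each library and 3.34 [1.20 to 11.5] in cells without granule genes. The macrophage count and both neutrophil counts of this paragraph are near the background and no result about the list.

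In whole-tumor neutrophils 6 of 26 list genes were higher and 0 lower in the sensitive-labelled than in the control library (background 10.3% and 5.05%). In the resistant-labelled one it was 3 of 25 higher and 0 lower (background 8.91% and 5.11%), a share near the background. Tnf was at 36.5 CPM in control-, 177 in sensitive- and 111 in resistant-labelled neutrophils, with ratios of 4.83 [2.96 to 8.14] and 3.03 [1.73 to 5.38]. Il1a was at 186, 385 and 410.0 CPM, with ratios of 2.07 [1.61 to 2.67] and 2.21 [1.70 to 2.86]. Icam1, an adhesion molecule, was at 25.4, 64.2 and 71.6 CPM (2.52 and 2.82), on 16 to 24 UMIs. Zc3h12a (2.21 [1.69 to 2.88]) and Csf1 (2.12 [1.54 to 2.91]) passed 2-fold in the sensitive-labelled library. The granule genes of immature neutrophils differed alongside, at the 4214, 2029.9 and 35.8 CPM given above, and in cells without them the ratios were closer to 1. There Tnf was at 4.01 [2.42 to 6.90] and 2.22 [1.25 to 4.03], Il1a at 1.55 [1.19 to 2.02] and 1.55 [1.19 to 2.03], and Icam1 at 2.0 [0.981 to 4.24] and 2.16 [1.06 to 4.56]. Zc3h12a was at 1.75 and Csf1 at 1.5 in the sensitive-labelled cells, so of these genes Il1a, Zc3h12a and Csf1 were no longer past 2-fold. Over all neutrophils without the 1 cell with most UMIs in each library, sensitive-labelled Il1a was at 1.91. In cancer cells of the resistant-labelled library 1 of 16 was higher (background 8.09%), Csf2 (2.03 [1.16 to 3.73]), with 38.2% of its 55 UMIs in 1 cell. Without the 1 cell with most UMIs in each library it was 1.60 [0.821 to 3.29], so this call rests on single cells.

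Last, each member was set against all genes with at least 100 UMIs by the Pearson correlation of log2(CPM + 10) over the library-by-lineage groups of at least 20 cells, 11 in the T cell libraries (12407 genes) and 7 in whole tumor (3267 genes). The groups share libraries and differ mostly by lineage, so these values describe lineage pattern. Cxcl1 was most like Inhba (0.956), Rhob (0.945) and Bsg (0.940), the lowest values of any member in the T cell libraries. Cxcl2 was most like Gla (0.996), Cxcl3 (0.991) and Rnf149 (0.990), and Cxcl3 most like C5ar1 (0.997), Sirpb1c (0.996) and Gm5150 (0.995). Cxcl5 went with Sema5a (0.983), Ednra (0.979) and Lgr4 (0.971), and Csf3 with Ubd (0.992), Amigo2 (0.990) and Pthlh (0.989). Cxcl12 went with Lgi3, Adamts12 and Ndufa4l2 (each 1.00). Of the receptors, Cxcr2 went with Il1f9 (0.999), Asprv1 (0.998) and Mirt2 (0.998), Csf3r with Fpr2 (0.998), Tnfrsf26 (0.997) and Slfn4 (0.997), and Cxcr4 with Lilr4b (0.994), Lilrb4a (0.994) and Tnf (0.985). In whole tumor the nearest genes were Hbegf for Cxcl1 (0.978), Themis2 for Cxcl2 (0.999), Ifrd1 for Cxcl3 (0.997), Klra17 for Cxcr2 (0.999), Cttn for Csf3 (0.999), Siglece for Csf3r (0.997) and Bin2 for Cxcr4 (0.995), and Cxcl5 and Cxcl12 had too few UMIs there.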

How the data were processed

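The authors processed reads with Cell Ranger against the mouse genome (mm10) and deposited unnormalized UMI counts per gene and barcode. The matrix headers name Cell Ranger 3.0.1 for whole tumor and 6.0.0 for T cell libraries, whose feature lists differ, so the 2 kinds were never compared. Mitochondrial features of the whole-tumor libraries all had 0 UMIs. A cell was kept from 500 genes up and with no more than 10% of its UMIs mitochondrial in the T cell libraries, and from 200 genes and 20% in whole tumor. Each cell was placed in the lineage with the highest share of listed markers detected, given at least 3 markers and 1.5 times the share of the next lineage, a rule set after marker counts had been seen. In the T cell libraries 93.9% to 99.6% of gated neutrophils, macrophages, fibroblasts, cancer and T/NK cells lay in a cluster of the same name. Lineage names were rebuilt here and can differ from the study's own. Doublets were kept in the values reported, and an alternative removed 112 sensitive and 159 resistant cells by Scrublet score.

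UMIs were summed per library and lineage and given as CPM with exact Poisson intervals, ratios with exact conditional binomial intervals and shares with Clopper-Pearson intervals (95%). A gene counted as past 2-fold when its CPM ratio was, among genes with at least 20 UMIs in both libraries together and lineages with at least 20 cells. Detection shares used cells thinned to 1000 UMIs (T cell libraries) or 500 (whole tumor). All 9 members are named everywhere. From the pathway list, genes past 2-fold with intervals excluding 1 are named, at most 5 per comparison by UMIs, and for likeness the 3 nearest genes (in whole tumor the nearest is given). The stricter cell filter of the closing section asked for 1000 genes (T cell libraries) or 500 (whole tumor), and the stricter gate for fewer than 2 markers of any other lineage. The members and lists were chosen with earlier results of these data known. Promoter sequences are from RefSeq. Ratio scripts were tested on simulated data. Python 3.11.15, numpy 2.4.6, scipy 1.17.1, pandas 2.3.3, scanpy 1.11.5 and matplotlib 3.10.9 were used.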

Additional observations from a re-analysis of the deposited data

Results flagged for a closer look

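Cxcl1 lay on opposite sides of 1 between lineages of the T cell libraries. The sensitive over resistant ratio was 3.16 in neutrophils, 1.81 in fibroblasts and 1.39 in cancer cells, and 0.650 in macrophages and 0.209 in T/NK cells. The difference between lineages was not tested, since each group had 1 library, and 1 cell held 77.4% of the resistant T/NK UMIs. The T/NK ratio turned to 2.44 with a stricter gate and 3.64 with clusters.

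Cxcl2 ratios also lay on both sides of 1, with 1.26 in neutrophils and 1.16 in fibroblasts against 0.684 in macrophages and 0.613 in T/NK cells, and this was not tested either. The fibroblast ratio was 0.949 with each cell weighted alike and 0.936 in cells with a Pi16 UMI. The T/NK ratio was 1.02 [0.892 to 1.155] within CD8 cells. Over all T/NK cells it was 0.266 without the 1 cell with most UMIs of the gene in each library. In whole tumor the Cxcl1 ratio of the resistant-labelled to the control library was 2.15 in neutrophils and 0.639 in cancer cells, again not tested.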

How the results depend on the processing

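Over 48 member ratios and 394 recomputed values, 303 stayed within the counting interval of the reported ratio, 83 moved out of it, and 8 reversed from a ratio whose interval excluded 1. The lineage holding most of a member's UMIs was kept by 9 of 9 members in the sensitive T cell library under 3 alternatives and by 8 or 9 in the resistant one. With clusters in place of gates it was kept by 7 of 9, 5 of 7 and 6 of 9 members in the control-, sensitive- and resistant-labelled whole tumors, where no cluster was named fibroblast. The alternative without the 10 cells with most UMIs of the gene (top cells), and those for genes of the wider list, were chosen after seeing the data. The causes were not tested.

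Reversed ratios were fibroblast Cxcl2 at 0.949 with each cell weighted alike, T/NK Cxcl1 at 2.44 with a stricter gate and 3.64 with clusters in place of gates, and neutrophil Cxcl3 of the sensitive-labelled over the control library at 0.978 with a stricter cell filter, 0.992 scaled by the median gene ratio and 0.816 without the 10 top cells. Resistant-labelled over control Cxcl1 reversed in neutrophils with a stricter cell filter (0.893) and in cancer cells without the 10 top cells (1.06).

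Counts of members past 2-fold moved in 19 of 140 values. The share over all genes was taken at the main setting only. The counts below therefore have no background beside them and are no result about the members. In neutrophils of the T cell libraries, 3 were higher with a stricter cell filter and 0 with clusters. In macrophages, 1 was higher with a stricter gate, and 2 were lower with a stricter gate, 1 with clusters and 2 without the 10 top cells. With a stricter gate macrophage Cxcl1 was at 0.314, Cxcl2 at 0.233 and Cxcl3 at 77.4. In T/NK cells, 0 were higher over all deposited barcodes, 2 with a stricter gate and 2 with clusters, and 0 were lower with a stricter gate, with clusters or with each cell weighted alike, but 2 without the 1 top cell. In neutrophils of the sensitive-labelled over the control library, 0 were higher without the 10 top cells. In those of the resistant-labelled over the control library, 0 were higher with a stricter cell filter, scaled by the median gene ratio, without the 1 top cell or without the 10 top cells. Sensitive-labelled over resistant-labelled, 1 was higher with a stricter cell filter.

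Detection shares moved out of their interval in 67 of 74 values when thinning was dropped or 2 UMIs were asked for, so they hold only at the stated depth. No paired analysis was possible because each group had 1 library, and for the same reason no replicate could be left out. Doublets were removed in the T cell libraries only, and a setting that left too few cells or UMIs gave no value, as for the fibroblast count with a stricter gate. With the stricter cell filter the neutrophil ratio between the T cell libraries was 2.22 for Cxcl3 and 2.22 for Cxcr4, and the Cxcl1 ratio of sensitive- over resistant-labelled whole-tumor neutrophils was 2.81. Without the 10 cells with most UMIs the T/NK Cxcl2 ratio was 0.212.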

Other observations

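In the sensitive-labelled whole tumor, 39 Csf3 UMIs were found although 1 cell was gated as cancer. Of these, 34 lay in 1 ungated cell of 21015 UMIs, which carried 5 cancer and 10 neutrophil markers and fell in a cluster named cancer.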
